A study of Mus musculus with 36 samples.

Results

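The protein kinase C (PKC) genes described here are 8 of the 55291 genes in the count table, matched by symbol. Prkca and Prkcb are the classical isoforms (cPKC). Prkcd, Prkce, Prkch and Prkcq are the isoforms that need diacylglycerol but not calcium (nPKC), and Prkci and Prkcz are the atypical isoforms (aPKC). All 8 genes were measured by RNA sequencing of mouse knee joints collected at 24 h in 3 groups of 3 biological replicates. Knees of the first group had an injury of the anterior cruciate ligament (ACL) and their mice received a PKC inhibitor that the labels do not name. Vehicle knees had the same injury and their mice received saline, and sham knees had no ACL injury. The labels and series text used here give no dose, route, strain, sex or age. The labels of these libraries call the tissue knee joint, while a protocol given with other samples of the series calls it cartilage of the knee.

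PKC isoforms are serine and threonine kinases that are grouped by what switches them on. Classical isoforms need calcium and diacylglycerol, nPKC isoforms need diacylglycerol but not calcium, and atypical isoforms respond to neither and are directed by partner proteins of the cell polarity machinery. PKC inhibitors mostly act on the kinase proteins. Transcript levels show which isoform genes a tissue transcribes, and not how much protein it holds or how active that protein is. In knee tissues the family is known for its part in cytokine and mechanical signalling of chondrocytes, in lymphocyte and myeloid cell activation, and in vessel wall cells.

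Promoter windows from RefSeq (build GRCm38.p6), the 250 bases upstream of a gene's RefSeq start, were found for 6 of the 8 isoform genes. Those of Prkci and Prkcd are shown 5′ to 3′ because these isoforms had the smallest p values in the comparison of inhibitor with vehicle and differed in opposite directions. Capitals mark GC boxes, written GGGCGG or, on the other strand, CCGCCC, the letters known to be bound by Sp1-type factors.
Prkci, chr3:30995521-30995770, plus strand: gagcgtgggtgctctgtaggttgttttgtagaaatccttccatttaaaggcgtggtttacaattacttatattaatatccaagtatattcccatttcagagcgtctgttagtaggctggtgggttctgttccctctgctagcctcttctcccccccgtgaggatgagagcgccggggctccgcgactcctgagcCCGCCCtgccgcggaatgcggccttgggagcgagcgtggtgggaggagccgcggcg
Prkcd, chr14:30626209-30626458, minus strand: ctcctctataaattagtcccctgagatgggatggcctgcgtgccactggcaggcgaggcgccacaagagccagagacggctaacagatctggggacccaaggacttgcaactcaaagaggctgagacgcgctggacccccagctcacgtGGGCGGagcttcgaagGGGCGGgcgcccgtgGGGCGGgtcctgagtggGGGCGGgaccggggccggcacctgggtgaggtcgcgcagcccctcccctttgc
The Prkci window held 1 GC box, on the strand opposite to the gene, and the Prkcd window held 4, all on the strand of the gene. Prkca and Prkcz had 2 each, and Prkcb and Prkcq had 1 each. RefSeq starts differ from the exon positions of the count annotation, which are listed further below. By those positions the Prkcb and Prkcq windows lay inside the gene, and the Prkca, Prkcd and Prkci windows overlapped its first exon bases. At least 1 GC box was present in 32.7% of the 32851 promoter windows of the same length in the table. GC content was 56.4% in the Prkci window and 67.6% in the Prkcd window.

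Each library totalled 124 to 202 M counts, of which 8 RNA genes (Rn7s1, Rn7s2, Rn7s6, Rn7sk, Gm47287, Gm47295, Gm47299 and Gm47305) held 88.5% to 95.9%. All other genes together had 15.2 and 14.7 M counts in inhibitor libraries 1 and 2 and 7.38 to 9.08 M in the other libraries. Counts on the 8 isoforms together were 1061, 2461 and 669 in inhibitor libraries 1 to 3, against 468, 677 and 783 in vehicle libraries 1 to 3 and 742, 763 and 569 in sham libraries 1 to 3. Markers of cartilage, skeletal muscle, B-lineage cells, neutrophils, macrophages, endothelium and fibroblasts were all present, so the libraries held more than cartilage, and no marker of any list was at 0 in every library. Inhibitor library 1 stood apart. Its 8 skeletal muscle markers summed to 86139.6 normalised counts (counts scaled to the mean effective library size), against 4623 to 34251 in the other libraries, and its 8 endothelial markers to 2672, against 439 to 1033. Several isoform values are also given without this library.

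Transcripts of all 8 isoforms were detected in the knee, and that of Prkcd was the most abundant for its length. Levels of different genes were compared as normalised counts per kilobase of exon. Prkcd, a diacylglycerol-activated isoform of many cell types including neutrophils and macrophages, averaged 46.4 ± 17.4 normalised counts per kilobase in inhibitor knees, 70.4 ± 17.5 in vehicle knees and 66.2 ± 13.4 in sham knees (SD, n = 3 each). It was above Prkcb, the next in order, in 9 of 9 libraries. Prkcb, the isoform that relays B-cell receptor signals, averaged 25.4 ± 9.19 per kilobase in inhibitor knees, 19.5 ± 4.04 in vehicle knees and 29.6 ± 5.8 in sham knees. It was above Prkch in 8 of 9 libraries, the exception being an inhibitor library.

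The middle of the order was not resolved. Over all 9 libraries the mean per kilobase was 14.5 for Prkch, 12.7 for Prkca and 12.1 for Prkci, and Prkch was above Prkca in 5 libraries, as was Prkca above Prkci. The second of these pairs split by group, since Prkci was above Prkca in 3 of 3 inhibitor libraries while Prkca was above Prkci in 2 of 3 vehicle and 3 of 3 sham libraries. Prkce followed with 8.17 per kilobase and was below Prkci in 7 of 9 libraries. Prkcq, the isoform of T-cell receptor signalling that is also abundant in skeletal muscle, averaged 3.96 and was below Prkce in 8 of 9. Prkcz came last at 0.940 per kilobase, below Prkcq in 8 of 9.

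Prkcz, an atypical isoform known from brain and epithelia, was close to the limit of detection. It had 12, 6 and 2 counts in inhibitor libraries 1 to 3, against 6, 7 and 3 in vehicle libraries 1 to 3 and 1, 5 and 5 in sham libraries 1 to 3, which is 47 in all. The groups overlapped, and the gene was left out of the tests because its counts were below the filter. The other 7 isoforms were tested. On the same strand only Prkce, of the 8, overlapped another annotated gene, AC154542.1, over 472 bases or 6.50% of its exon length, and AC154542.1 had 15 counts in all.

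**Figure D1:**
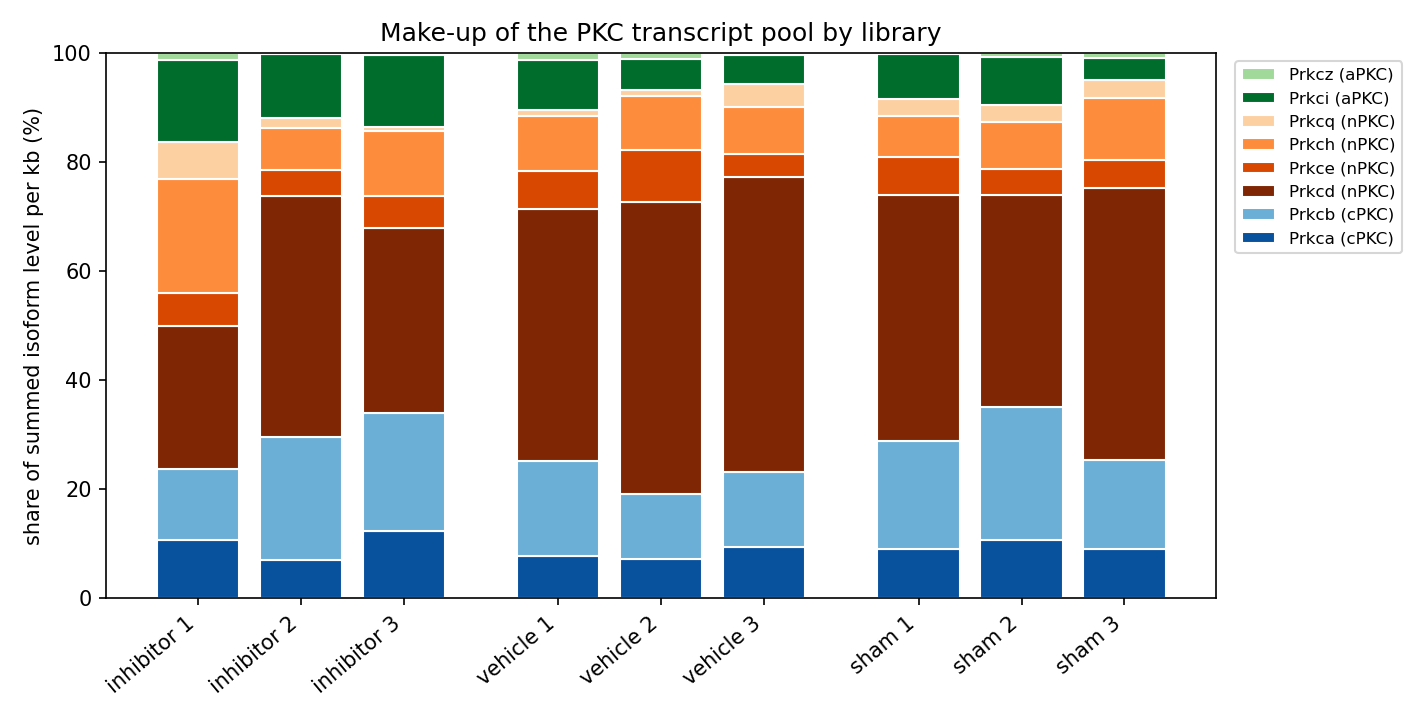
Share of each isoform in the summed normalised count per kilobase of all 8 (y axis, percent) in each of the 9 libraries (x axis, bars stacked to 100%), with inhibitor libraries on the left, then vehicle and sham. Prkcd is the largest segment in every bar, and the dark green Prkci segment covers 11.6% to 15.2% with inhibitor, 5.36% to 9.05% with vehicle and 3.95% to 8.75% in sham.

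Grouped by class, nPKC isoforms made up most of the pool per kilobase. Their share was 56.9% ± 4.0 in inhibitor knees, 69.9% ± 5.04 in vehicle knees and 62.7% ± 7.23 in sham knees (SD, n = 3 each). Classical isoforms held 29.1% ± 5.13 with inhibitor, 22.5% ± 3.13 with vehicle and 29.8% ± 5.0 in sham. Atypical isoforms, mostly Prkci, held 16.4%, 11.9% and 13.6% in inhibitor libraries 1 to 3, against 10.4%, 6.70% and 5.75% in vehicle libraries 1 to 3 and 8.46%, 9.45% and 4.87% in sham libraries 1 to 3. Every inhibitor library was therefore above every other library in the atypical share. A share rises when another isoform is lower, so the isoforms were next compared one by one.

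**Figure D2:**
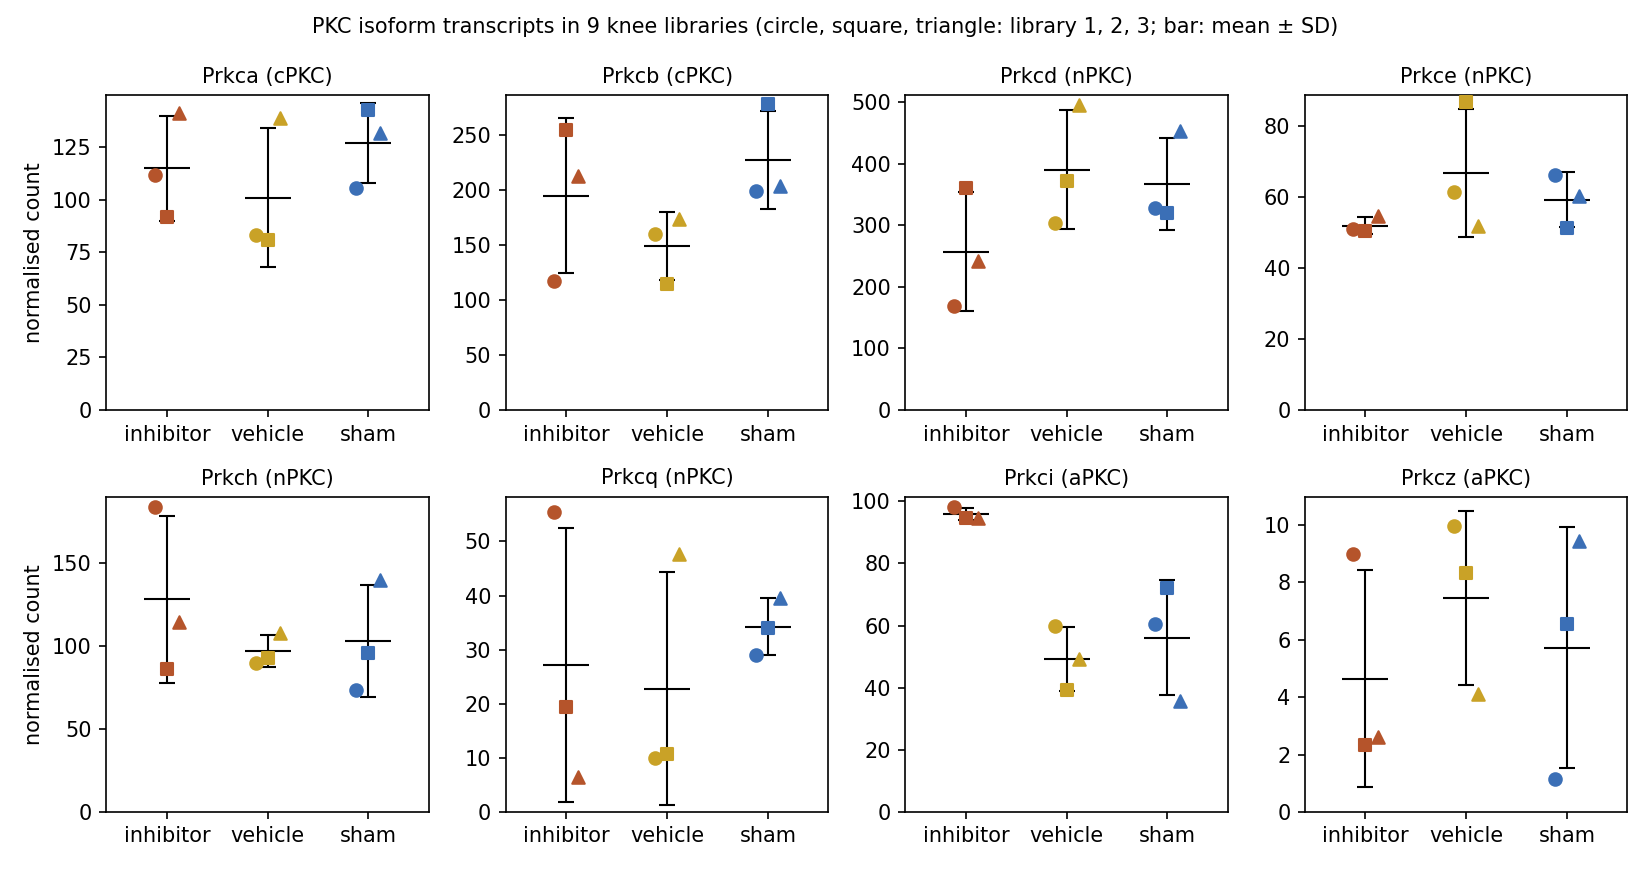
Normalised counts (y axis, from 0) of the 8 isoforms in inhibitor, vehicle and sham knees (x axis), one panel per gene, with one point per library and bars for mean ± SD (n = 3). Prkci is the panel in which all inhibitor libraries (94.7 to 98.3) lie above all vehicle libraries (39.2 to 59.8) and all sham libraries (35.8 to 72.1), and Prkcz stays at or below 9.97 in every library.

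The comparison of injured inhibitor knees with injured vehicle knees addresses whether isoform transcripts differ under PKC inhibition. No isoform passed the test. Prkci was 1.95-fold higher with inhibitor and Prkcd was 0.661 times the vehicle level, both short of the threshold after adjustment over all genes. Of the 7 tested isoforms 0 were called by edgeR's quasi-likelihood test at an adjusted p under 0.05, against 0.731% of the 13823 tested genes (101 genes, of which 4 or 0.0289% were higher and 97 or 0.702% lower). DESeq2 also called 0. At an unadjusted p under 0.05 edgeR counted 2 isoforms (Prkci and Prkcd), against 13.4% of all genes, and DESeq2 counted 1. The median log2 fold change of the 7 was 0.27, against 0.04 over all tested genes.

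Prkci, the atypical isoform that binds the polarity proteins PAR3 and PAR6, had 98.3, 94.7 and 94.8 normalised counts in the inhibitor libraries, against 59.8, 39.2 and 49.1 in the vehicle libraries. The lowest inhibitor library was well above the highest vehicle library, and the inhibitor libraries lay close together. Means were 95.9 ± 2.05 with inhibitor and 49.4 ± 10.3 with vehicle (SD, n = 3 each). The log2 fold change was 0.96 (SE 0.30, 95% interval of the fold 1.26 to 3.02, adjusted p = 0.158, edgeR quasi-likelihood test). Prkci was the only isoform of the 7 whose libraries did not overlap here, and non-overlap was seen in 18.9% of all tested genes, with 8.44% higher and 10.4% lower with inhibitor. Without inhibitor library 1 the log2 fold change was 0.95 (adjusted p = 0.198), and over all alternatives it ran from 0.80 to 1.11 with adjusted p of 0.0766 to 0.535.

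Cell type markers of the same libraries are given beside these values. The 8 cartilage markers summed to 1904, 1623 and 4425 normalised counts in the inhibitor libraries, against 9242, 7439.9 and 10132 in the vehicle libraries, and the groups did not overlap. By the test 0 of 7 tested cartilage markers were called (smallest adjusted p = 0.0688, for Col9a1). Fibroblast markers summed to 32144 to 72465 with inhibitor and 85837 to 97744 with vehicle, but 5 of 8 had a positive log2 fold change (median 0.10) and 0 were called. B-lineage markers summed to 296 to 399 with inhibitor and 494 to 533 with vehicle, with 1 of 8 called, Cd22, which fell (adjusted p = 0.0234). In bulk tissue fewer cells of a type and less RNA per cell cannot be told apart, and the part of these marker levels in the isoform values was not tested.

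Prkcd had 169.5, 360.3 and 241 normalised counts in the inhibitor libraries, against 304, 372 and 495 in the vehicle libraries. The groups overlapped, because inhibitor library 2 was above vehicle library 1, while inhibitor library 1 was the lowest of all 9. Means were 257 ± 96.4 with inhibitor and 390.4 ± 96.9 with vehicle (SD, n = 3 each). On the log2 scale the fitted difference was −0.60 (SE 0.27, 95% interval of the fold 0.443 to 0.985, adjusted p = 0.353, edgeR). Without inhibitor library 1 it was −0.36 (adjusted p = 0.575). The 8 neutrophil markers summed to 9859, 18129 and 8206 in inhibitor libraries 1 to 3 and 10437, 8092 and 9417 in vehicle libraries 1 to 3. Inhibitor library 2 was the highest of its group in both Prkcd and these markers. Inhibitor library 1, the lowest in Prkcd, was above inhibitor library 3 in these markers. In sham they summed to 15314 to 20729, with Prkcd at 320 to 453 normalised counts. Monocyte and macrophage markers summed to 2441, 3814 and 2795 with inhibitor and 2306, 2142.0 and 3290.0 with vehicle. Both lists overlapped between inhibitor and vehicle with 0 of 8 called, and their part in the Prkcd value was not tested.

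The ratio of Prkcd to Prkci, each per kilobase, combines both differences within a library. It was 1.73, 3.81 and 2.55 in inhibitor libraries 1 to 3, against 5.09, 9.5 and 10.1 in vehicle libraries 1 to 3 and 5.43, 4.44 and 12.6 in sham libraries 1 to 3. All inhibitor libraries were below all others. The ratio was formed after the values of both genes were seen, so it is given as a description without a test.

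Among the other isoforms, the Prkch value depended on 1 library and the Prkcq value on several. Prkch, an nPKC isoform of endothelial and lymphoid cells, had 184, 85.7 and 114 normalised counts with inhibitor and 89.7, 92.7 and 108 with vehicle. Its log2 fold change was 0.40 (SE 0.30, 95% interval of the fold 0.847 to 2.05, adjusted p = 0.591), and 0.03 without inhibitor library 1 (adjusted p = 0.976). That library also had the highest sum of endothelial markers.

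Prkcq had 55.5, 19.5 and 6.49 normalised counts with inhibitor, against 9.97, 10.7 and 47.7 with vehicle. Values within each group spanned a wider range than the group means differed. The log2 fold change was 0.27 (SE 0.72, 95% interval of the fold 0.406 to 3.58, adjusted p = 0.906), and without inhibitor library 1, whose muscle markers were highest, it was −0.68 (adjusted p = 0.688). Leaving out vehicle library 3 in turn gave 1.40 (adjusted p = 0.532), vehicle library 1 −0.07 and vehicle library 2 −0.11. The 8 T and NK cell markers summed to 35.3 to 50.3 with inhibitor and 54.8 to 70.9 with vehicle, and only 2 of them had enough counts to be tested, with 0 called.

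Prkca, Prkcb and Prkce overlapped between inhibitor and vehicle. Prkca, a widely expressed classical isoform, had 112, 91.9 and 141 normalised counts with inhibitor and 83.1, 80.8 and 139 with vehicle (log2 fold change 0.17, SE 0.27, adjusted p = 0.819). Prkcb had 117, 254 and 213 with inhibitor and 159.5, 114 and 173 with vehicle (0.39, SE 0.28, adjusted p = 0.563), and 0.66 without inhibitor library 1 (adjusted p = 0.212). Prkce, an nPKC isoform known from heart and sensory neurons, had 51.0, 50.3 and 54.5 with inhibitor and 61.5, 86.8 and 51.8 with vehicle (−0.37, SE 0.29, adjusted p = 0.604). The 95% intervals of the fold were 0.764 to 1.67 for Prkca, 0.873 to 1.97 for Prkcb and 0.508 to 1.18 for Prkce, so neither a moderate difference nor its absence was shown.

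**Figure D3:**
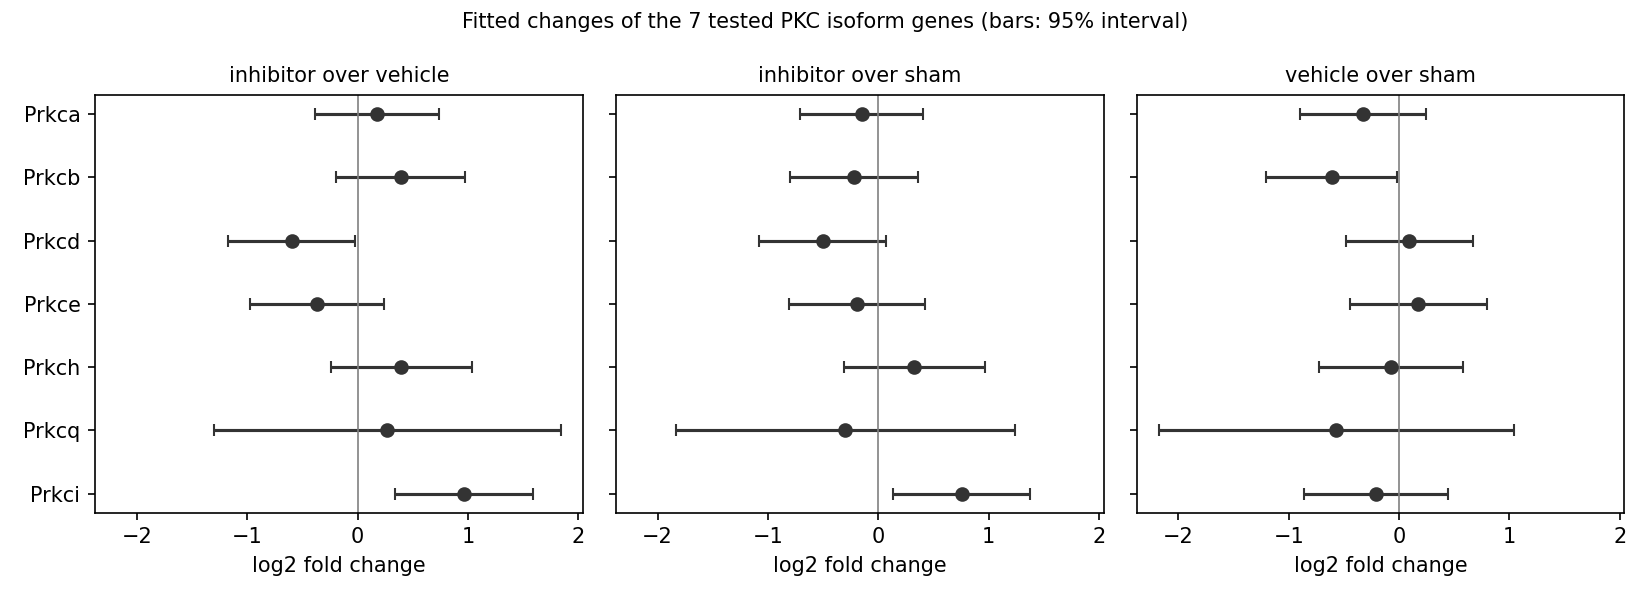
Log2 fold changes (x axis) of the 7 tested isoforms (y axis) with 95% intervals from edgeR's quasi-likelihood fit, in panels for inhibitor over vehicle, inhibitor over sham and vehicle over sham (n = 3 each). The Prkci interval lies above 0 in both inhibitor panels (0.96 and 0.76), the Prkcb interval lies just below 0 in the vehicle panel (−0.61), and the Prkcq intervals are the widest. No isoform passed an adjusted p of 0.05.

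Injury was assessed by injured vehicle knees against sham knees. No isoform passed the test, and most differed by less than the spread between libraries. Prkcb showed the largest difference relative to its error, at 0.655 times the sham level. Of the 7 tested isoforms 0 were called by edgeR's quasi-likelihood test, against 0.304% of tested genes (42 genes, of which 39 or 0.282% were higher and 3 or 0.0217% lower). DESeq2 also called 0. At an unadjusted p under 0.05 edgeR counted 1 isoform, Prkcb, against 8.28% of all genes, and DESeq2 counted 0. The median log2 fold change was −0.21, against −0.02 over all tested genes.

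Prkcb had 159.5, 114 and 173 normalised counts in the vehicle libraries, against 199, 278 and 204 in the sham libraries. Every vehicle library was below every sham library, a pattern without overlap that 17% of all tested genes showed, 8.76% as lower and 8.2% as higher. Means were 149 ± 30.9 with vehicle and 226.8 ± 44.3 in sham (SD, n = 3 each). On the log2 scale the fitted difference was −0.61 (SE 0.28, 95% interval of the fold 0.434 to 0.988, adjusted p = 0.584, edgeR). The 8 B-lineage markers summed to 533, 509.9 and 494 in vehicle libraries 1 to 3 and to 709, 678 and 594 in sham libraries 1 to 3. They were also without overlap, and 0 of 8 were called. In inhibitor libraries 1 to 3 these markers summed to 356, 296 and 399, below all vehicle and sham libraries. Prkcb there was 117, 254 and 213, and inhibitor library 2, lowest in these markers, had the highest Prkcb of its group. Neutrophil markers summed to 8092 to 10437 in vehicle and 15314 to 20729 in sham, with 1 of 8 called, Ltf, which fell (adjusted p = 0.0288). Of 8 platelet and megakaryocyte markers 1 was called, Pf4, which rose (adjusted p = 0.0134). The part of these marker differences in the Prkcb value was not tested. With the muscle markers as a covariate, the Prkcb log2 fold change was −0.90 (adjusted p = 0.0653).

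The other isoforms overlapped between vehicle and sham. Prkcd had 304, 372 and 495 normalised counts with vehicle and 328, 319.9 and 453 in sham (log2 fold change 0.09, SE 0.27, 95% interval of the fold 0.715 to 1.59, adjusted p = 0.969). Prkca had 83.1, 80.8 and 139 with vehicle and 106, 143 and 132 in sham (−0.33, SE 0.27, adjusted p = 0.813). Prkci had 59.8, 39.2 and 49.1 with vehicle and 60.5, 72.1 and 35.8 in sham (−0.21, SE 0.31, 95% interval of the fold 0.551 to 1.36, adjusted p = 0.917). Prkce (0.17, SE 0.29, adjusted p = 0.930) and Prkch (−0.07, SE 0.31, adjusted p = 0.982) had differences smaller than their errors. Prkcq had 9.97, 10.7 and 47.7 with vehicle and 29.1, 34.1 and 39.6 in sham (−0.57, SE 0.74, 95% interval of the fold 0.221 to 2.05, adjusted p = 0.901). Without vehicle library 3, the one vehicle library above every sham library, its log2 fold change was −1.71 (adjusted p = 0.743).

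Inhibitor knees were also set against sham knees. This comparison shares its inhibitor libraries with the first and its sham libraries with the second, so the 3 sets of values stand side by side and are not independent. Of the 7 tested isoforms 0 were called by edgeR's quasi-likelihood test, against 3.95% of tested genes (546 genes, of which 175 or 1.27% were higher and 371 or 2.68% lower). DESeq2 also called 0, and 1 isoform, Prkci, had an unadjusted p under 0.05 in each tool, against 18% of all genes in edgeR. The median log2 fold change was −0.19, against 0.03 over all tested genes. Prkci averaged 95.9 ± 2.05 normalised counts with inhibitor and 56.1 ± 18.5 in sham (SD, n = 3 each). On the log2 scale the fitted difference was 0.76 (SE 0.29, 95% interval of the fold 1.10 to 2.6, adjusted p = 0.177, edgeR). Its libraries did not overlap, as in 22.9% of all tested genes (11.2% higher, 11.6% lower). Without sham library 3, which had the lowest Prkci value of all 9, the log2 fold change was 0.53 (adjusted p = 0.450).

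Prkcd averaged 257 ± 96.4 normalised counts with inhibitor and 367 ± 74.4 in sham, with overlapping libraries (log2 fold change −0.50, SE 0.27, adjusted p = 0.355), and −0.27 without inhibitor library 1 (adjusted p = 0.594). Inhibitor libraries 1 and 3 were below all sham libraries and inhibitor library 2 was not. The log2 fold changes of the other 5 tested isoforms lay between −0.30 (Prkcq) and 0.33 (Prkch), with adjusted p of 0.618 to 0.868. Without inhibitor library 1 they were −1.25 for Prkcq (adjusted p = 0.259), −0.035 for Prkch (adjusted p = 0.961) and 0.050 for Prkcb (adjusted p = 0.932). Several cell type markers passed the test in this comparison. Of those tested, 4 of 7 cartilage, 4 of 8 B-lineage and 5 of 8 neutrophil genes fell, as did Lck, 1 of 2 tested T and NK cell markers. The 8 cartilage markers summed to 1623 to 4425 with inhibitor and 7719 to 23549 in sham. Of 8 monocyte and macrophage markers Cd68 rose (adjusted p = 0.0236), and of 8 platelet and megakaryocyte markers Pf4 rose (adjusted p = 0.0204) and Itga2b fell (adjusted p = 0.00827).

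**Figure D4:**
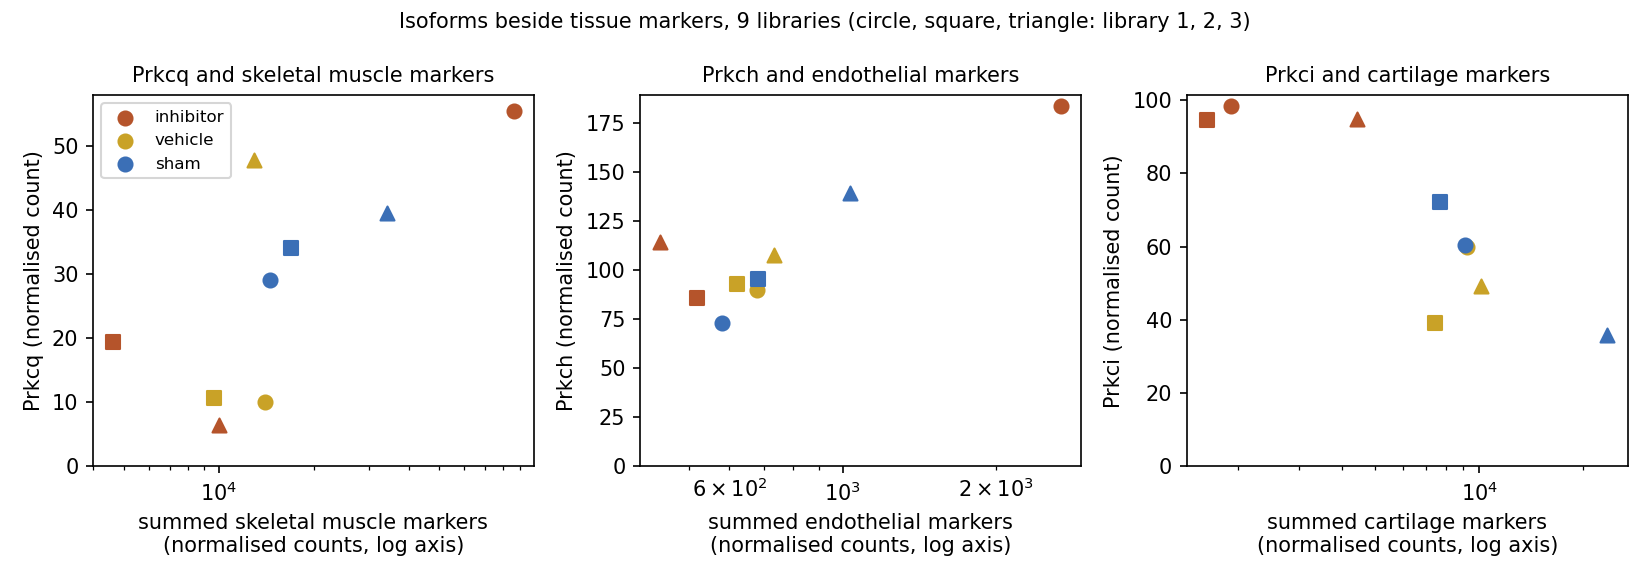
Normalised counts of Prkcq, Prkch and Prkci (y axes, from 0) against the summed normalised counts of skeletal muscle, endothelial and cartilage markers (x axes, log scale) in the 9 libraries, coloured by group. Inhibitor library 1 (circle) is at the right end of the muscle (86139.6) and endothelial (2672) panels and has the highest Prkcq and Prkch, while the 3 inhibitor libraries sit at the upper left of the cartilage panel, with Prkci at 94.7 to 98.3 and cartilage sums of 1623 to 4425.

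The machinery around the isoforms was examined through 43 genes in 6 roles, of which 38 were tested. In inhibitor against vehicle and in vehicle against sham 0 were called, and in inhibitor against sham 0 were higher and 3 were lower, where 3.95% of all tested genes were called (1.27% higher, 2.68% lower). Median log2 fold changes over the 38 were 0.04, −0.11 and 0.03 in the order inhibitor against vehicle, vehicle against sham and inhibitor against sham, close to those of all genes. The 3 genes that fell in inhibitor against sham were Akap12, Add2 and Card9. Each call ended in several alternatives. All 3 ended in a fit with only these 2 groups and without sham library 1, sham library 3, vehicle library 2, vehicle library 3 or inhibitor library 2. Those of Akap12 and Add2 also ended without sham library 2 or vehicle library 1, and that of Card9 without inhibitor library 1 or with the muscle covariate. Without both inhibitor libraries 1 and 2 the log2 fold changes were −0.61 for Akap12 (adjusted p = 0.399), −0.65 for Add2 (adjusted p = 0.385) and −1.35 for Card9 (adjusted p = 0.408).

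Akap12, a scaffold that tethers PKC at the plasma membrane, had 194, 127 and 234 normalised counts with inhibitor, against 282, 372 and 428 in sham. The groups did not overlap, as in 22.9% of all tested genes (11.6% lower), and the log2 fold change was −0.97 (SE 0.25, adjusted p = 0.0378, edgeR). Without inhibitor library 2 the adjusted p was 0.127, and over all alternatives it ran from 0.00414 to 0.399. Add2, an adducin of the spectrin and actin skeleton that PKC phosphorylates and that is abundant in red cells, had 83.3, 92.7 and 218 with inhibitor and 393, 334 and 304 in sham (−1.42, SE 0.35, adjusted p = 0.0426). Its 2 lowest libraries were inhibitor libraries 1 and 2, and without inhibitor library 2 the adjusted p was 0.131. Erythroid markers summed to 2243 to 4351 with inhibitor and 4743 to 6508 in sham, with 0 of 6 called, and their part in the Add2 value was not tested.

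Card9, the adaptor by which PKC delta signals to NF-κB in myeloid cells, had 34.5, 50.6 and 90.9 normalised counts with inhibitor, against 249, 114 and 345 in sham. All inhibitor libraries were below all sham libraries, a pattern of 11.6% of all tested genes (log2 fold change −2.04, SE 0.47, adjusted p = 0.0434). Without sham library 1 the adjusted p was 0.137. Against vehicle, with 108, 187 and 216 normalised counts, the Card9 log2 fold change was −1.58 (SE 0.47, adjusted p = 0.176). No other member of the CARD, BCL10 and MALT1 complex list was called in any comparison by edgeR.

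In the other roles the gene with the smallest p against vehicle remained short of the threshold. Among anchors it was Cavin3, which binds PKC delta, with 118 ± 16.5 normalised counts in inhibitor knees and 57.2 ± 15.0 in vehicle knees (log2 fold change 1.05, SE 0.29, adjusted p = 0.116). Llgl2, a polarity protein phosphorylated by atypical PKC, averaged 5.70 ± 1.52 with inhibitor and 21.2 ± 16.9 with vehicle (−1.86, SE 0.63, adjusted p = 0.195), at counts of 118 in all libraries together. Among substrates it was Add2 (−1.04, SE 0.35, adjusted p = 0.209). Phlpp2, a phosphatase that acts on PKC, averaged 67.4 ± 15.4 with inhibitor and 109 ± 28.9 with vehicle (−0.68, SE 0.30, adjusted p = 0.344). Prkd3, a protein kinase D that PKC activates, had 186 ± 16.3 with inhibitor and 149 ± 24.7 with vehicle (0.32, SE 0.23, adjusted p = 0.561).

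After injury 0 of 38 were called. The genes with the smallest p of their role were Ppp1r14b, a phosphatase inhibitor phosphorylated by PKC (243 ± 49.7 normalised counts in vehicle, 171 ± 45.8 in sham, log2 fold change 0.51, adjusted p = 0.593), and Pard3, the polarity scaffold that binds atypical PKC (112 ± 8.45 in vehicle, 79.2 ± 14.9 in sham, 0.51, adjusted p = 0.614). Akap12 (−0.45, adjusted p = 0.658), Pdpk1, the kinase that primes new PKC (−0.33, adjusted p = 0.738), Pkn2, a PKC-related kinase (−0.30, adjusted p = 0.743), and Card9 (−0.46, adjusted p = 0.858) were those of the other roles.

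For each tested isoform the genes with the most similar profile over the 9 libraries were listed, among those with at least 50 normalised counts on average. Because each is among the highest of 7806 coefficients (7807 for Prkcq) over libraries that share depth and tissue make-up, these are descriptions without a test. For Prkci they were Zcchc24 (Pearson r = 0.97 of log2 CPM), the ribosomal protein gene Rps3a1 (0.97) and the translation elongation factor gene Eef1a1 (0.97). For Prkch they were Crybg3 (0.98), Tmcc3 (0.94) and Pbxip1 (0.94), and for Prkcq Nxn (0.96), Ralgapa2 (0.94) and Ly6e (0.93). Genes similar to Prkcd included B430306N03Rik (0.95) and Pstpip1 (0.95). Prkcb was closest to Brwd3 (0.94), Trim12c (0.93) and Dctn5 (0.92), the last of which lies near it on chromosome 7. Genes similar to Prkca included Zfp532 (0.88) and Col8a2 (0.87), and Prkce had Fbxw7 (0.91), Zfp346 (0.89) and Gm44597 (0.88).

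On mm10, with positions counted from 1 and covering the first to the last exon base, Prkca lies on chromosome 11 from 107933387 to 108343928 (minus strand) and Prkcb on chromosome 7 from 122288751 to 122634402 (plus). Prkcd lies on chromosome 14 from 30595354 to 30626210 (minus), Prkce on chromosome 17 from 86167785 to 86657919 (plus), and Prkch on chromosome 12 from 73584796 to 73778185 (plus). Prkcq lies on chromosome 2 from 11172108 to 11301222 (plus), Prkci on chromosome 3 from 30995747 to 31052959 (plus), and Prkcz on chromosome 4 from 155260129 to 155361361 (minus). Their exon lengths run from 5544 bases for Prkcd to 8992 bases for Prkca.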

How the data were processed

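Per the labels' protocols, TRIzol-extracted total RNA of mouse knees underwent ribosomal depletion and 100 bp paired-end sequencing (DNBSEQ-G400). The deposited raw counts per gene were made by the authors with HISAT2, per the submitters' processing notes, and featureCounts 2.0.1 on GENCODE M25 exons of mm10, per the file headers, as strand-specific read pairs; multi-mapping reads were counted in full and overlapping genes each got the read. The HISAT2 version is not given in the sources used here. The 27 columns of 2 other tables match no label and were not analysed here.

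Counts of the 9 libraries were fitted together with edgeR 4.0.16 (limma 3.58.1, R 4.3.3): TMM scaling, filterByExpr (minimum count 10, 13823 genes kept), robust quasi-likelihood F tests, two-sided, adjusted by Benjamini-Hochberg over all tested genes at a threshold of 0.05. SE is the log2 fold change over the root of F. A normalised count is a count over the library's effective size, times the mean effective size. DESeq2 1.42.0 was an alternative, with others given in the closing section. Intervals are of the fold change and rest on the spread between libraries within groups, as estimated in the joint fit of the 9 libraries. The series text calls the libraries of a group biological replicates. Counts were also simulated for vehicle against sham (13168 genes tested). Of genes changed by 1 log2 unit 12.3% were called, against 56.1% at 2 and 72.3% at 3. These were 8, 37 and 47 genes, and 9 unchanged genes were called as well. Figures and promoter motifs used Python 3.11.15 with matplotlib 3.10.9, numpy 2.4.6 and pandas 2.3.3. Members and gene lists were chosen with earlier results of these data known. Genes named beyond the isoforms are partner genes that passed the test or had the smallest p of their role, and the 3 genes most like each isoform; some of the genes so chosen are not reported here.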

Additional observations from a re-analysis of the deposited data

How the results depend on the processing

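Of 357 values of the 21 isoform fold changes under the alternatives (other scaling, DESeq2, no filter, fewer groups or libraries, a replicate block, a muscle covariate), 0 were called and 16 had the other sign, all of them for values that were not called either. With the muscle covariate these were the log2 fold changes of Prkcd (−0.14) and Prkch (0.31) in vehicle against sham and of Prkcq (−0.049) in inhibitor against vehicle. Without both inhibitor libraries 1 and 2, which had the smaller share of dominant RNAs, they were Prkcq against vehicle (−1.80) and Prkca against sham (0.17). Leaving out 1 library gave sign changes within these ranges: in vehicle against sham Prkci −0.43 to 0.0059, Prkch −0.27 to 0.20, Prkce −0.046 to 0.33 and Prkcd −0.11 to 0.27; in inhibitor against vehicle Prkcq −0.68 to 1.40 and Prkca −0.00038 to 0.48; and in inhibitor against sham Prkcb −0.47 to 0.050, Prkch −0.035 to 0.59 and Prkcq −1.25 to 0.11. The cause was not tested.

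The number of all genes called moved far more. In vehicle against sham it was 155 in DESeq2 (125 higher, 30 lower), 262 with no filter (164, 98), 291 with only the 2 groups (170, 121), 206 with the muscle covariate (113, 93), 301 without inhibitor libraries 1 and 2, and 1 to 234 without 1 library. In inhibitor against vehicle it was 355 in DESeq2 (50, 305), 554 with no filter (175, 379), 3 with only the 2 groups, 352 with the muscle covariate (60, 292), 20 without inhibitor libraries 1 and 2, and 0 to 256 without 1 library. In inhibitor against sham it was 885, 1056, 198, 1176, 174 and 141 to 841 in the same order. Per coding length, from the GENCODE M21 annotation in place of a protein table, the sham share was 13.2% for Prkca and 36.5% for Prkcd, which still ranked first.

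Replicate numbers recur across groups, and the labels give no pairing. Deviations from the group means had 9 correlations from −0.24 to 0.07 between same-numbered libraries and 18 from −0.17 to 0.20 between others. These values cannot show whether equal numbers share a batch, because differences in tissue make-up enter them too. With the replicate block 24 genes were called in vehicle against sham, 103 in inhibitor against vehicle and 420 in inhibitor against sham, and 0 isoforms in each. Among partner genes against vehicle, Cavin3 (adjusted p = 0.0226) and Add2 (0.00348) were called with no filter, and Add2 (0.00871) without inhibitor library 3.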
